A study of Caenorhabditis elegans with 4 samples.

Results

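The C-type lectin genes (clec) of Caenorhabditis elegans were followed in larvae in which a topoisomerase was depleted together with DPY-27. The genes described are those whose sequence name, in either of 2 result tables of the authors, maps to a symbol made of clec and a number. No measured value entered that choice. It gave 171 of the 17491 genes listed, with 159 in the table for depletion of TOP-2 and DPY-27, 164 in that for depletion of TOP-1 and DPY-27, and 152 in both. Ensembl release 115 names 240 clec genes, and the other 69 have no line in either table and are not analysed here. H16D19.1 and T07D10.4 are both named clec-15 and were kept as separate genes.

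RNA was compared among 3 groups, namely L2/L3 larvae of each depletion and a control strain. The sample list of this series covers the depletions only. No stage, growth time, temperature or batch of the control was given in the sources used here. Strain, batch and stage can therefore not be separated from depletion in any comparison with the control. The depleted larvae were kept on 1 mM auxin for 2 h after 24 h of growth at 22 °C, and the control is named by the authors as also on auxin for 2 h. Strain AM11 carries top-2::degron::GFP together with dpy-27::degron::GFP, and strain AM12 carries top-1::degron::GFP together with dpy-27::degron::GFP. A degron tag marks a protein for destruction by the plant factor TIR1 once auxin is present. CA1200, the strain the authors set both depletions against, is in common use as a source of TIR1 from an eft-3 promoter and has none of these degron tags. DPY-27 belongs to condensin DC, which binds the X chromosomes in dosage compensation. It was targeted in both depletions, so effects of a topoisomerase and of DPY-27 cannot be told apart here. Larvae of AM11 and AM12 are called TOP-2-depleted and TOP-1-depleted below, and in both DPY-27 was targeted as well. The degron acts on protein, so transcript levels do not show how complete the removal was. Each group had 2 libraries, the depleted ones called biological replicates by the authors without a statement on separate cultures, so p-values measure only the spread between these libraries.

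C-type lectin-like domain proteins share a compact double-loop fold that in many animal lectins holds calcium and binds sugars, though many worm members are not known to bind either. Most are predicted to be secreted, and many are made in the intestine, which in worms is the main surface that meets swallowed bacteria. Members of the family are among the transcripts that change most when worms are fed pathogens, and several serve as reporters of the p38 (PMK-1) immune pathway. The genes often lie in tandem groups of close copies. The treatment of reads shared by several genes and whether strand was used were not given in the sources used here. Single members of such groups are therefore uncertain.

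The authors' tables give a mean normalized count per gene and comparison and no value per library. Those means are printed to 15 significant digits and are sums of whole reads divided by size factors, so the reads of each library could be solved from them. All 16657 genes tried gave 1 whole-number solution, 170 of the 171 clec genes among them, the exception being clec-63, whose mean was above the range tried. Solved separately from each table, the control reads were identical in 7090 of 7090 genes, 118 of them clec genes. Which library carries which replicate number cannot be told from the tables, so the libraries of a group are called 1 and 2 in the order of their size factors. The values per library below are these reads divided by size factors computed over all 6 libraries. Fold changes, standard errors (SE) and adjusted p-values are the authors' own unless limma is named, and an adjusted p under 0.05 is a call. Total reads per library are unknown, and the mean normalized counts of all genes sum to 15781972 in the table of TOP-2-depleted larvae and to 15729010 in that of TOP-1-depleted larvae.

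The 2 control libraries stand apart from each other in clec genes, which touches every comparison with the control below. Among 103 clec genes with a mean of 10 or more over the 6 libraries, 51 (49.5%) differed by at least 2-fold between the control libraries, 44 of them higher in library 2. Over all 12490 genes of that level the share was 11.6%. Between the libraries of TOP-2-depleted larvae it was 21.4% of clec genes and 10.5% of all genes, and between those of TOP-1-depleted larvae 14.6% and 7.41%. Summed over the 151 clec genes with reads for all libraries, normalized counts were 33875 and 30622 in TOP-2-depleted larvae, 60947 and 61433 in TOP-1-depleted larvae, and 28312 and 46562 in the control. The sums of TOP-1-depleted larvae lay above both control libraries, while those of TOP-2-depleted larvae lay between them. Counts of calls are therefore also given from limma-voom on the recovered reads, with each control library left out, a choice made after seeing the data.

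**Figure D1:**
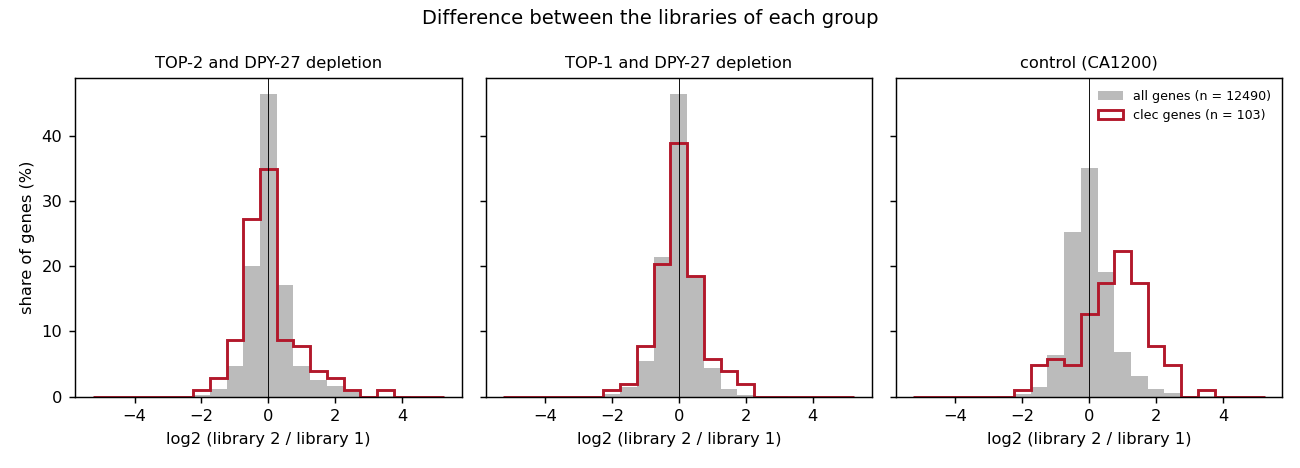
Distribution of log2 ratios between library 2 and library 1 of each group (x axis, with 1 added to each normalized count) as a share of genes in percent (y axis), for all 12490 genes (grey) and the 103 clec genes (red line) with a mean of at least 10. In the control the clec genes lie to the right of 0, with 44 at least 2-fold higher in library 2 and 7 in library 1.

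More clec genes were called higher than lower in both depletions, and more were called in TOP-1-depleted than in TOP-2-depleted larvae. For TOP-2-depleted larvae the authors' deposited table called 52 of 127 tested clec genes, 38 higher and 14 lower, which is 40.9% against 21.5% of all genes tested. Split by direction, 29.9% of clec genes were higher and 11.02% lower, against 14.1% and 7.47% of all genes. For TOP-1-depleted larvae 72 of 128 were called in the authors' deposited table (61 were higher and 11 were lower), or 56.3% against 29.9% of all genes. Here 47.7% of clec genes were higher and 8.59% lower, against 17.1% and 12.8% of all genes. An adjusted p was missing for 32 and 36 clec genes of the tables.

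The middle of the family also lay above that of all genes. Among clec genes with a mean normalized count of 10 or more, the median log2 fold change in the authors' deposited tables was 0.71 in TOP-2-depleted larvae (98 genes) and 1.62 in TOP-1-depleted larvae (105 genes). All genes at that level had medians of -0.03 and -0.04. Of these clec genes, 1 and 2 in turn had no control read. Their lower bounds lay above the medians, so setting them there left 0.71 and 1.62 unchanged by construction and tests nothing. The spread was wide, with the middle 50% of clec genes between -0.83 and 2.48 in TOP-2-depleted larvae and between 0.13 and 3.65 in TOP-1-depleted larvae in the authors' deposited tables. With limma-voom, 48 of 103 clec genes were called in TOP-2-depleted larvae (36 higher, 12 lower), against 26.7% of all genes (16.6% higher, 10.1% lower), and without control library 1 the clec calls became 33 (18 higher, 15 lower), against 7.24% of all genes higher and 6.07% lower. Without control library 2 they were 48 (39 higher, 9 lower), against 9.12% of all genes higher and 6.46% lower. In TOP-1-depleted larvae limma-voom called 61 of 103 (56 higher, 5 lower), against 36.1% of all genes (19.9% higher, 16.2% lower), with 49 (40 higher, 9 lower) without control library 1, against 9.47% of all genes higher and 8.57% lower. Without control library 2 there were 63 (58 higher, 5 lower), against 15.4% of all genes higher and 14.7% lower. The limma-voom median moved from 0.84 to 0.23 and 1.45 in TOP-2-depleted larvae, and from 1.83 to 1.22 and 2.61 in TOP-1-depleted larvae, without control library 1 and 2 in turn, while that of all genes stayed between -0.03 and 0.01 in these fits.

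**Figure D2:**
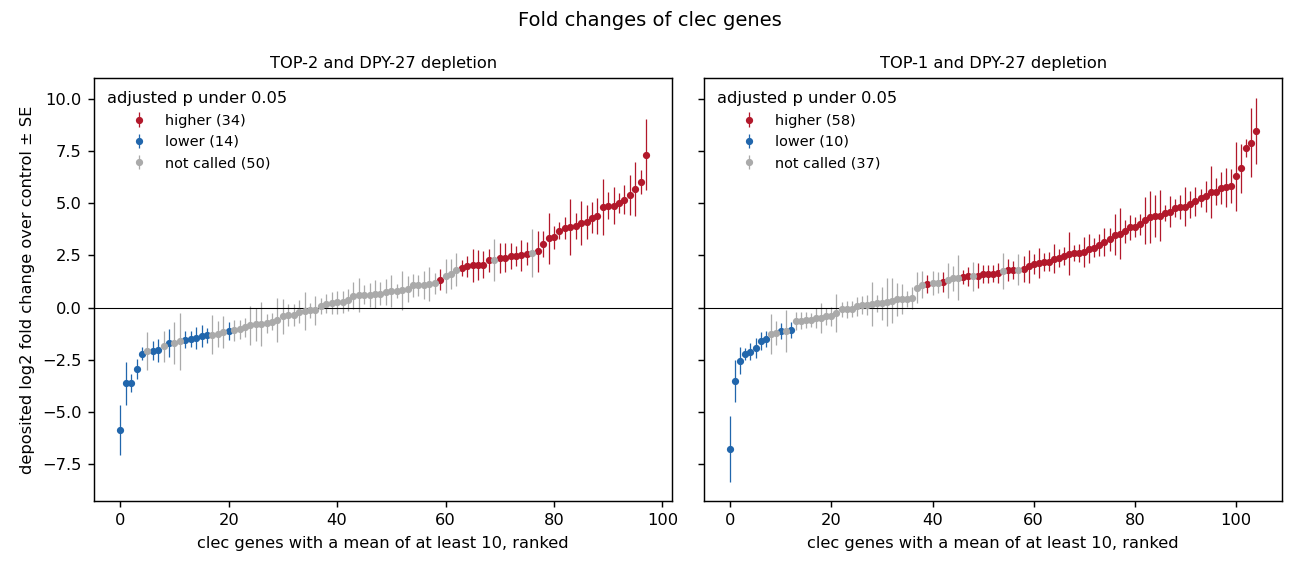
Deposited log2 fold changes over the control with their SE (y axis) for clec genes with a mean normalized count of 10 or more, ranked from lowest to highest (x axis), in TOP-2-depleted larvae (left, 98 genes) and TOP-1-depleted larvae (right, 105 genes). Red points were called higher, blue points lower and grey points neither, and the right panel holds more red points.

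Read by library, a lack of overlap with the control was common among all genes too. A larger share of clec genes than of all genes lay above the control, and a smaller share below it. Both libraries of TOP-2-depleted larvae lay above both control libraries in 53 of 103 clec genes and below both in 23, while 33.4% and 33.8% of all genes did so. For TOP-1-depleted larvae these numbers were 67 and 16 of 103, against 35.8% and 36.4% of all genes. The depletions share their control libraries, so their calls are not independent. Side by side, among the 124 clec genes that both tables tested, 36 were called higher in both, 8 lower in both and 45 in neither, while 11.6%, 5.52% and 65.2% of all genes tested in both were. A further 24 were called higher only by the table of TOP-1-depleted larvae, and 2 (clec-88 and clec-194) only by that of TOP-2-depleted larvae. The 5 called lower only by the table of TOP-2-depleted larvae were clec-49, clec-82, clec-186, clec-187 and clec-210, and the 3 called lower only by the other were clec-180, clec-206 and clec-232. None of these splits shows by itself that the depletions differ, which was tested separately. The shares of all genes called by only 1 of the tables were not counted, so these numbers are not read as a trait of the family. Over all tested genes, too, more were called in TOP-1-depleted (29.9%) than in TOP-2-depleted larvae (21.5%).

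By chromosome, the 171 genes fall as 17 on I, 38 on II, 12 on III, 43 on IV, 58 on V and 3 on X. Chromosome II had 9 of 24 tested clec genes called higher in TOP-2-depleted larvae and 12 of 23 in TOP-1-depleted larvae, with none lower in either. Of all tested genes on chromosome II, 12.2% were higher and 8.65% lower in TOP-2-depleted larvae, and 14.4% higher and 14.6% lower in TOP-1-depleted larvae. On chromosome V, 18 of 51 were higher and 7 lower in TOP-2-depleted larvae (against 14.6% and 11.3% of all its genes), and 27 higher and 7 lower of 51 in TOP-1-depleted larvae (against 19.2% and 13.7%). Chromosome IV held 9 higher and 4 lower of 33 in TOP-2-depleted larvae (against 13.2% and 7.79% of all its genes), and 15 higher and 2 lower of 34 in TOP-1-depleted larvae (against 14.6% and 14.3%). Of all X-linked genes tested, 24.5% were called higher and 2.27% lower in TOP-2-depleted larvae, and 34.5% higher and 3.57% lower in TOP-1-depleted larvae. On the X, whose genes condensin DC acts on, clec-265 had 896 and 616 in TOP-2-depleted larvae, 2056 and 2034 in TOP-1-depleted larvae, and 229 and 746 normalized counts in the control. It was called higher in TOP-1-depleted larvae in the authors' deposited table (2.09 ± 0.46, log2 fold change ± SE, adjusted p 6.76e-05), as was clec-86 (2.82 ± 0.69, adjusted p 3.28e-04). In TOP-1-depleted larvae clec-265 was not called by limma-voom without TOP-1-depleted library 1 or 2 (adjusted p 0.0774 and 0.0734). No X-linked clec gene was called in TOP-2-depleted larvae, and clec-266 was called in neither.

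Levels within the family were very unequal. Per kb of exonic length, the highest mean normalized count in the authors' deposited table for TOP-2-depleted larvae was that of clec-63 (20994), followed by clec-50 (5385), clec-83 (3342), clec-1 (2789) and clec-48 (1445). For TOP-1-depleted larvae the authors' deposited table began in the same order, with clec-63 at 30689, clec-50 at 6655, clec-83 at 3778 and clec-1 at 2701, and clec-41 came next at 1750. The gene clec-63 alone gave 42.2% and 44.04% of the family's summed mean counts in the tables. These are means over depletion and control libraries together and order the genes within a table only. In the tables of the TOP-2 and of the TOP-1 depletion, 61 of 159 and 59 of 164 members had a mean under 10.

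Of the most abundant members, clec-1 and clec-41 had large fold changes and are described further on, and those of clec-63, clec-50 and clec-83 were smaller. For clec-63 the log2 fold change in the authors' deposited tables was 0.24 ± 0.55 (adjusted p 0.813) in TOP-2-depleted larvae and 1.22 ± 0.47 (adjusted p 0.034) in TOP-1-depleted larvae. The gene clec-50 had 3805 and 3304 normalized counts in TOP-2-depleted larvae, 6006 and 7206 in TOP-1-depleted larvae and 4054 and 10045 in the control. TOP-2-depleted libraries lay just below both control libraries and TOP-1-depleted ones between them, and neither was called, though without control library 1 limma-voom called clec-50 lower in TOP-2-depleted larvae (adjusted p 0.0261). Likewise clec-83 had 1833 and 1892 in TOP-2-depleted larvae, 2796 and 2987 in TOP-1-depleted larvae and 2384 and 5453 in the control, with no call in either table, though without control library 1 limma-voom called it lower in both (adjusted p 0.0228 and 0.0332). Over genes with a mean of 100 or more, the median log2 fold change in the authors' deposited tables was 0.24 for clec genes in TOP-2-depleted larvae and 1.20 in TOP-1-depleted larvae, against -0.11 and -0.13 for all genes.

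A run of 13 neighbouring genes on chromosome V, each within 10 kb of the next, held near-silent genes of the control that were read in every depletion library. In genomic order these are clec-40, clec-25, clec-36, clec-26, clec-37, clec-35, clec-27, clec-31, clec-22, clec-32, clec-24, clec-28 and clec-33. Summed normalized counts were 644 and 546 in TOP-2-depleted larvae, 1230.1 and 993 in TOP-1-depleted larvae, and 25.2 and 33.2 in the control. No gene of the run had more than 10 reads in a control library, and in all 13 both libraries of each depletion lay above both control libraries. Among all genes with a mean of at least 10, 33.4% (TOP-2 depletion) and 35.8% (TOP-1 depletion) lay above in this way. Genes so low in the control could hardly lie below it, so this order was favoured in advance. Of all tested genes on chromosome V, 14.6% were called higher in TOP-2-depleted larvae and 19.2% in TOP-1-depleted larvae. In TOP-1-depleted larvae 13 of 13 genes of the run were called higher in the authors' deposited table, with log2 fold changes of 3.48 to 8.45. In TOP-2-depleted larvae 9 of 13 were called higher in the authors' deposited table, over a range of 2.51 to 7.32 for all 13, and the others (clec-22, clec-27, clec-35 and clec-40) were not called. In limma-voom, which tested 11 of them, 10 were called higher in TOP-2-depleted larvae and 11 in TOP-1-depleted larvae. Fewer were called in each without control library 1. The highest control mean of the run was 6.47, so these genes passed the floor of that fit only through depletion libraries. That floor was a mean of 10 over the 6 libraries. Calls higher were therefore favoured in advance and are not a separate check. In the authors' deposited tables, too, genes with so few control reads could hardly be called lower. The direction of those calls was therefore also favoured in advance.

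Within the run, clec-28 was the highest, with 181 and 138 normalized counts in TOP-2-depleted larvae, 213 and 217 in TOP-1-depleted larvae, and 7.88 and 0.949 in the control. Next to it by count, clec-26 had 103 and 86.1 in TOP-2-depleted larvae, 194 and 167 in TOP-1-depleted larvae and 6.3 and 6.64 in the control. The control libraries agree closely for clec-26, and its deposited log2 fold changes were 3.91 ± 0.63 and 4.82 ± 0.58 (adjusted p 1.40e-08 and 4.37e-15) in the authors' deposited tables of the TOP-2 and of the TOP-1 depletion. The gene clec-25 had 24.2 and 25.1 in TOP-2-depleted larvae, 60.03 and 50.6 in TOP-1-depleted larvae and no read in either control library. With 3 reads over both control libraries as the floor, clec-25 was at least 19.1-fold higher in TOP-2-depleted larvae and at least 43.1-fold higher in TOP-1-depleted larvae, counting error only. For clec-24, with 2 control reads in all, the ratio was 27.4 (95% exact counting interval 7.18 to 233) in TOP-2-depleted larvae and 46.3 (95% exact counting interval 12.4 to 389) in TOP-1-depleted larvae. TOP-2-depleted larvae lay below TOP-1-depleted larvae in both libraries for 12 of the 13 genes, against 27.5% of all genes, though no single difference was called.

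A shorter group of 4 on the same chromosome, clec-38, clec-34, clec-29 and clec-39, had the same form. All 4 had both libraries of each depletion above both control libraries. The highest control mean of the group was 1.42, so its genes could hardly lie below the control. This order was therefore favoured in advance here too. Of the 12490 genes compared by library, 33.4% (TOP-2 depletion) and 35.8% (TOP-1 depletion) lay above the control in the same sense. The authors' deposited tables called clec-34 and clec-39 higher in TOP-2-depleted larvae. In TOP-1-depleted larvae they called all 3 tested genes (clec-38, clec-34 and clec-39) higher. On chromosome V, 14.6% (TOP-2 depletion) and 19.2% (TOP-1 depletion) of all tested genes were called higher. With so few control reads the group's genes could hardly be called lower, so the direction of these calls was also favoured in advance. The gene clec-39, needed for full resistance to Serratia marcescens, had 10.3 and 9.8 normalized counts in TOP-2-depleted larvae, 39.7 and 35.3 in TOP-1-depleted larvae and no read in the control. That is at least 7.78-fold and at least 29.1-fold higher. Of the 3 genes it tested, limma-voom called 2 in TOP-2-depleted larvae and 3 in TOP-1-depleted larvae. Fewer were called in each without control library 1, and in TOP-1-depleted larvae also without either TOP-1-depleted library. These genes too passed the floor of that fit only through depletion libraries, so the calls are not a separate check.

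**Figure D3:**
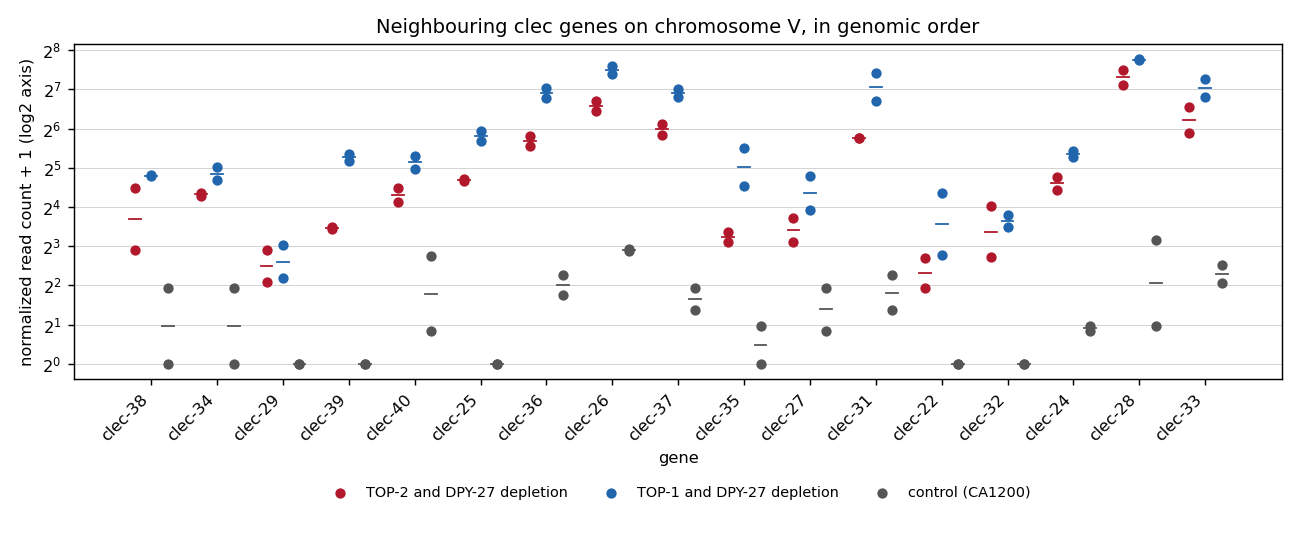
Normalized read counts plus 1 (y axis, log2 scale) of the neighbouring chromosome V genes clec-38 to clec-39 and clec-40 to clec-33, in genomic order (x axis), with a point per library and a bar at the geometric mean of the 2 libraries. Control points (grey) lie below both depletions (red, TOP-2-depleted; blue, TOP-1-depleted) for every gene shown.

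Other runs of neighbours on chromosome IV held both called and uncalled genes. Of all tested genes on that chromosome, 13.2% were called higher in TOP-2-depleted larvae and 14.6% in TOP-1-depleted larvae. The run clec-165 to clec-170 had 2 of 4 tested genes called higher in TOP-2-depleted larvae and 3 of 4 in TOP-1-depleted larvae, with none lower. In that run clec-166 had 556 and 487 normalized counts in TOP-2-depleted larvae, 1084 and 837 in TOP-1-depleted larvae and 33.1 and 51.2 in the control. It had some of the lowest adjusted p-values of the family, with log2 fold changes of 3.67 ± 0.41 and 4.53 ± 0.39 in the authors' deposited tables (adjusted p 4.11e-17 and 1.89e-29, TOP-2 and TOP-1 depletion). Next to it clec-165, with 2 control reads in all, had 56.9 and 27.2 normalized counts in TOP-2-depleted larvae and 98.7 and 72.9 in TOP-1-depleted larvae, and without control library 2 limma-voom did not call it in TOP-2-depleted larvae (adjusted p 0.0516). The last gene of the run, clec-170, by contrast, had 95.1 and 75.2 in TOP-2-depleted larvae, 82.4 and 125 in TOP-1-depleted larvae and 51.2 and 101 in the control, with all 3 groups overlapping and no call.

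The longer chromosome IV run from clec-67 to clec-79 is read beside the same 13.2% and 14.6% of all genes. It had 3 of 8 tested genes called higher in TOP-2-depleted larvae and 7 of 9 in TOP-1-depleted larvae, with none lower. Here clec-72 had 1902 and 1636 normalized counts in TOP-2-depleted larvae, 3418 and 4256 in TOP-1-depleted larvae and 459 and 1267 in the control. The control libraries of clec-72 differ by more than 2-fold, and the authors' deposited tables gave 1.07 ± 0.51 (adjusted p 0.122) in TOP-2-depleted larvae and 2.17 ± 0.43 (adjusted p 7.95e-06) in TOP-1-depleted larvae. By limma-voom clec-72 was called in TOP-2-depleted larvae without control library 2 (adjusted p 0.022) and was not called in TOP-1-depleted larvae without TOP-1-depleted library 2 (adjusted p 0.0612). In the same run clec-75 had 254 and 273 in TOP-2-depleted larvae, 429 and 459.7 in TOP-1-depleted larvae and 64.6 and 81.6 in the control. It was called higher in both of the authors' deposited tables (1.89 ± 0.39 and 2.62 ± 0.37, TOP-2 and TOP-1 depletion).

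The run clec-80 to clec-85 held calls in opposite directions within a few genes. The gene clec-80 had 148 and 136 normalized counts in TOP-2-depleted larvae, 371 and 352 in TOP-1-depleted larvae and 7.09 and 44.6 in the control, and was called higher in both of the authors' deposited tables (2.50 ± 0.74 and 3.84 ± 0.58). Its neighbour clec-82 had 63.4 and 70.8 in TOP-2-depleted larvae, 173 and 222 in TOP-1-depleted larvae and 154 and 414 in the control. It was called lower in TOP-2-depleted larvae (-2.05 ± 0.55, adjusted p 0.0019 in the authors' deposited table), and limma-voom did not call it without TOP-2-depleted library 1, TOP-2-depleted library 2 or control library 2 (adjusted p 0.114, 0.0856 and 0.0572). In TOP-1-depleted larvae limma-voom called clec-82 lower only without control library 1 (adjusted p 0.0398).

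On chromosome II, clec-62 to clec-66 had 1 of 5 called higher in TOP-2-depleted larvae (clec-64) and 4 of 5 in TOP-1-depleted larvae (all but clec-66). Of all tested genes on that chromosome, 12.2% and 14.4% were called higher in turn. By limma-voom clec-65 was not called in TOP-1-depleted larvae (adjusted p 0.0629), and clec-64 was not called in TOP-2-depleted larvae without control library 1 (adjusted p 0.0706). The gene clec-62 shows the pattern, with 596 and 635 normalized counts in TOP-2-depleted larvae, 1235 and 1307 in TOP-1-depleted larvae and 182 and 638 in the control. The TOP-2-depleted libraries sat beside the higher control library, and those of TOP-1-depleted larvae above it. By limma-voom clec-62 was called in TOP-2-depleted larvae without control library 2 (adjusted p 0.0219) and was not called in TOP-1-depleted larvae without TOP-1-depleted library 1 or 2 (adjusted p 0.113 and 0.115). On chromosome V, where 14.6% and 19.2% of all tested genes were called higher, a further run was clec-57, clec-227, clec-56, clec-54 and clec-55. Of these, 2 of 5 were called higher in TOP-2-depleted larvae and 4 of 5 in TOP-1-depleted larvae. In that run clec-56 had 542 and 559 in TOP-2-depleted larvae, 1249 and 1205 in TOP-1-depleted larvae and 121 and 325 in the control, and limma-voom did not call it in TOP-2-depleted larvae without TOP-2-depleted library 1, TOP-2-depleted library 2 or control library 1 (adjusted p 0.0777, 0.0826 and 0.054).

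Beyond the runs, the genes clec-42 and clec-41 on chromosome V, both linked to defence against pathogenic bacteria, had large rises at high counts. The gene clec-42 (F16H6.1) had 1330 and 624 normalized counts in TOP-2-depleted larvae, 3413 and 2702 in TOP-1-depleted larvae, and 9.45 and 21.8 in the control. In the authors' deposited tables it stood at 6.02 ± 0.56 (adjusted p 2.92e-24) in TOP-2-depleted larvae and 7.65 ± 0.43 (adjusted p 9.60e-67) in TOP-1-depleted larvae. The other genes of its run, clec-245 and clec-246, were not called in either. The gene clec-41 (B0365.6) had 4275 and 2299.9 normalized counts in TOP-2-depleted larvae, 8823 and 9042 in TOP-1-depleted larvae, and 171 and 485 in the control. All depletion libraries were above both controls, and the authors' deposited tables gave 3.36 ± 0.55 and 4.78 ± 0.43 (adjusted p 2.67e-08 and 2.77e-26, TOP-2 and TOP-1 depletion).

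The gene clec-7 (F10G2.3) rose by nearly the same amount in both depletions, with 1032 and 591 normalized counts in TOP-2-depleted larvae, 1168 and 754 in TOP-1-depleted larvae and 18.9 and 33.2 in the control. The difference between the depletions was -0.22 ± 0.65 on the log2 scale (TOP-2 minus TOP-1, ± SE, Wald p 0.731). A similar case was clec-198 on chromosome IV, with 157 and 112.2 in TOP-2-depleted larvae, 156 and 134 in TOP-1-depleted larvae and 5.51 and 3.8 in the control. Its neighbour clec-199 was called lower in both of the authors' deposited tables (-1.12 ± 0.43 and -1.06 ± 0.38, adjusted p 0.0452 and 0.0199), but limma-voom did not call it in TOP-1-depleted larvae (adjusted p 0.054), nor in TOP-2-depleted larvae without TOP-2-depleted library 2 or control library 1 (adjusted p 0.174 and 0.147). The genes clec-160 on chromosome III, clec-43 on II and clec-87 on I were also among the 10 largest rises in TOP-2-depleted larvae, where the authors' deposited table gave them 2.59 ± 0.56, 3.06 ± 0.63 and 3.80 ± 0.53. Of these, limma-voom did not call clec-43 (adjusted p 0.0947 and 0.127) or clec-87 (adjusted p 0.0866 and 0.0718) without control library 1 or without control library 2.

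Genes called lower in both depletions numbered 8 of the 124 tested in both, namely clec-106, clec-92, clec-233, clec-1, clec-48, clec-264, clec-47 and clec-199. Among all genes tested in both, 5.52% were called lower in both. The clec number is near that share and is not read as a trait of the family. The gene clec-1 (F25B4.9), among the most abundant per kb, had 745 and 661 normalized counts in TOP-2-depleted larvae, 691 and 735 in TOP-1-depleted larvae and 3507 and 3199 in the control. The libraries of each group were close, and the authors' deposited tables gave -2.21 ± 0.31 and -2.22 ± 0.30 (adjusted p 3.28e-11 and 1.01e-11, TOP-2 and TOP-1 depletion). The gene clec-233 (F21H7.4) had 26.1 and 40.3 in TOP-2-depleted larvae, 76.3 and 118 in TOP-1-depleted larvae and 454 and 384 in the control. It was lowest in TOP-2-depleted larvae, and its log2 fold changes in the authors' deposited tables were -3.63 ± 0.43 and -2.11 ± 0.39 (TOP-2 and TOP-1 depletion). The gene clec-264 was nearly level between the depletions, with 179.9 and 181 in TOP-2-depleted larvae, 173 and 194 in TOP-1-depleted larvae and 613 and 433 in the control.

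The lowest fold change of the family, named after its values were seen because its mean is under 50, was that of clec-106 (Y18D10A.12) on chromosome I. It had 0.932 and 1.09 normalized counts in TOP-2-depleted larvae, 0 and 1.18 in TOP-1-depleted larvae, and 66.2 and 54.1 in the control. With so few depletion reads its ratio to the control was 0.0166 (95% exact counting interval 0.00199 to 0.0609) in TOP-2-depleted larvae and 0.00899 (95% exact counting interval 0.000226 to 0.0509) in TOP-1-depleted larvae, counting error only. In the same run of neighbours, clec-104 had too few reads in any group to show a change. For clec-47 the libraries within each depletion were far apart, at 168 and 491 in TOP-2-depleted larvae and 179 and 431 in TOP-1-depleted larvae, with 784 and 1066 in the control, and limma-voom did not call it (adjusted p 0.0708 and 0.0556). Of the 8 genes, limma-voom called 7 lower in TOP-2-depleted larvae and 5 in TOP-1-depleted larvae. The 8 were chosen by the authors' calls on the same reads, so these counts are not separate support.

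**Figure D4:**
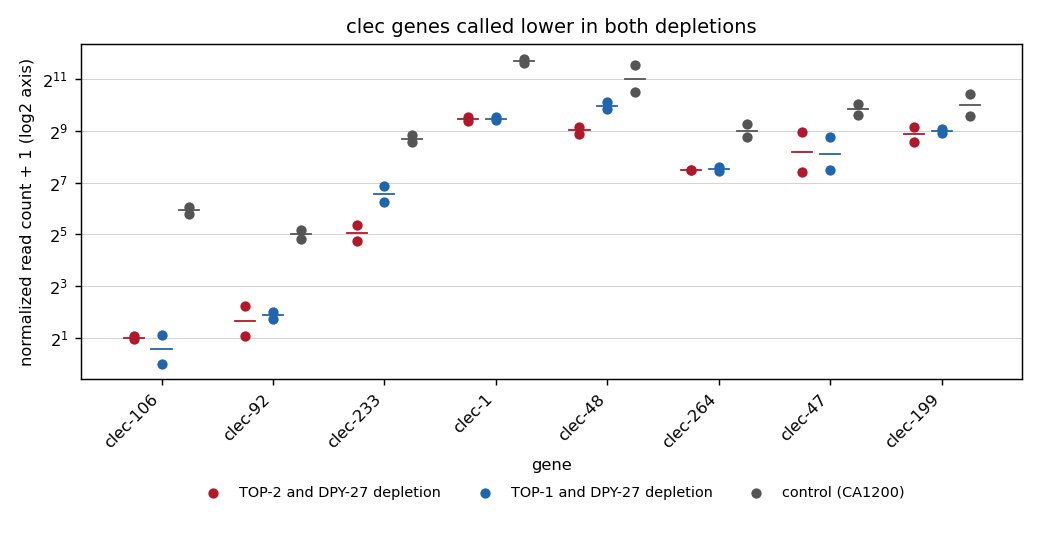
Normalized read counts plus 1 (y axis, log2 scale) of the 8 clec genes called lower in both depletions (x axis, ordered by deposited fold change in TOP-2-depleted larvae), with a point per library and a bar at the geometric mean of the 2 libraries. The control (grey) lies above both depletions for each gene, by most for clec-106 and least for clec-199.

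Members with a known part in infection did not move as 1 group. Of 9 such genes, the authors' deposited tables called 3 higher (clec-4, clec-39 and clec-61) and 1 lower (clec-49) in TOP-2-depleted larvae, and 5 higher (clec-4, clec-39, clec-61, clec-67 and clec-85) and none lower in TOP-1-depleted larvae. Of all tested genes, 14.1% were higher and 7.47% lower in TOP-2-depleted larvae, and 17.1% and 12.8% in TOP-1-depleted larvae. The set lay near its own family, of which 29.9% and 47.7% were called higher. The clec-4 gene, linked to survival on pathogenic bacteria, had 246 and 356 normalized counts in TOP-2-depleted larvae, 339 and 339.8 in TOP-1-depleted larvae, and 37 and 74 in the control. All its depletion libraries were above both controls, with log2 fold changes of 2.48 ± 0.49 and 2.63 ± 0.43 in the authors' deposited tables (adjusted p 7.32e-06 and 2.70e-08, TOP-2 and TOP-1 depletion). Its neighbour clec-8 was also called higher in both (2.26 ± 0.56 and 2.87 ± 0.46 in the authors' deposited tables), but not by limma-voom in TOP-2-depleted larvae without control library 1 or 2 (adjusted p 0.108 and 0.0633) or in TOP-1-depleted larvae without control library 1 (adjusted p 0.0508).

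The clec-60 gene, which the intestine switches on when worms meet Staphylococcus aureus or Microbacterium nematophilum, showed the widest control of the set. It had 117 and 263 normalized counts in TOP-2-depleted larvae, 713 and 936 in TOP-1-depleted larvae, and 192 and 1204 in the control. The TOP-1-depleted libraries lay between the control libraries, and clec-60 was called in neither of the authors' deposited tables (-1.85 ± 0.74, adjusted p 0.0564, and 0.26 ± 1.14, adjusted p 0.901, TOP-2 and TOP-1 depletion). Left with control library 1 alone, limma-voom called it in TOP-1-depleted larvae (adjusted p 0.0335), and left with control library 2 alone, in TOP-2-depleted larvae (adjusted p 0.0314). Next to it, clec-61 had 86.7 and 251 in TOP-2-depleted larvae, 99.7 and 198 in TOP-1-depleted larvae and 17.3 and 67.4 in the control. It was called higher in both of the authors' deposited tables (adjusted p 0.03 and 0.0128) but not by limma-voom (adjusted p 0.0955 and 0.0899).

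The genes clec-67 and clec-85, used as reporters of the p38 pathway, were called higher in TOP-1-depleted larvae and not called in TOP-2-depleted larvae. For clec-67 the normalized counts were 931 and 670 in TOP-2-depleted larvae, 1920 and 1828 in TOP-1-depleted larvae and 194 and 907 in the control. The TOP-2-depleted libraries overlapped the control, and the authors' deposited tables gave 0.57 ± 0.64 (adjusted p 0.59, TOP-2 depletion) and 1.79 ± 0.53 (adjusted p 0.0038, TOP-1 depletion), and limma-voom did not make the TOP-1 call without TOP-1-depleted library 1, TOP-1-depleted library 2 or control library 1 (adjusted p 0.15, 0.133 and 0.0502). Without control library 2 limma-voom called clec-67 and clec-85 higher in TOP-2-depleted larvae too (adjusted p 0.0249 and 0.036). For clec-85 they were 379 and 359.5 in TOP-2-depleted larvae, 806 and 697 in TOP-1-depleted larvae and 158 and 337 in the control, and limma-voom did not make its TOP-1 call without TOP-1-depleted library 1 (adjusted p 0.0615). The genes clec-52, which S. aureus also induces, and clec-66 were called in neither table, though without control library 2 limma-voom called both higher in TOP-1-depleted larvae (adjusted p 0.0264 and 0.0491). The clec-49 gene had 164 and 125 in TOP-2-depleted larvae, 265 and 296 in TOP-1-depleted larvae and 225 and 535 in the control, and its call in TOP-2-depleted larvae was not made by limma-voom (adjusted p 0.0757).

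Control library 2 was the higher one for 8 of these 9 genes, by 2.00-fold to 6.26-fold, and the ninth, clec-39, had no control read. Summed normalized counts of the 9 were 2376 and 2695 in TOP-2-depleted larvae, 4968 and 4993 in TOP-1-depleted larvae, and 1044 and 3812 in the control. Of all genes, limma-voom called 16.6% higher in TOP-2-depleted larvae and 19.9% in TOP-1-depleted larvae. With limma-voom, 2 of the 9 were called higher in TOP-2-depleted larvae and 4 in TOP-1-depleted larvae. Without control library 1 these became 2 higher and 2 lower, and 3 higher and 1 lower, while without control library 2 they became 4 and 7 higher with none lower. Without TOP-1-depleted library 1 only 2 were called higher in TOP-1-depleted larvae.

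**Figure D5:**
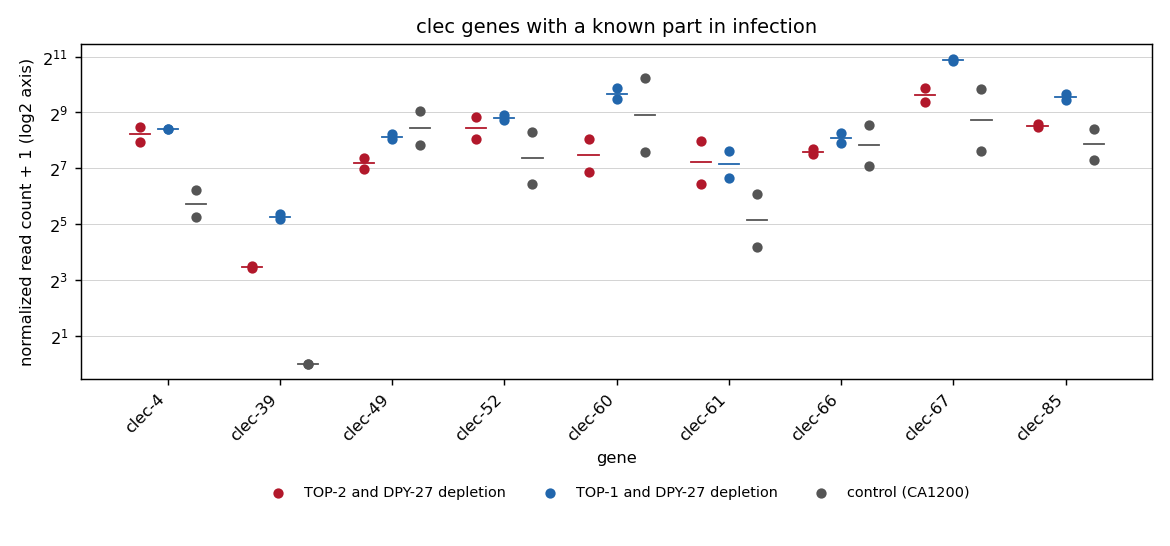
Normalized read counts plus 1 (y axis, log2 scale) of the 9 clec genes with a known part in infection (x axis), with a point per library and a bar at the geometric mean of the 2 libraries. The control points (grey) are far apart for clec-60, at 192 and 1204, while clec-4, clec-39, clec-61 and clec-85 have both depletions (red and blue) above both control points.

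The direct comparison asks whether TOP-2-depleted and TOP-1-depleted larvae differed, and the common control cancels in it. The depletions are separate strains, AM11 and AM12, with stage given only as L2/L3. Differences of strain, batch or exact stage can therefore not be separated from the depletion here either. By a Wald z of the difference of the deposited log2 fold changes, adjusted over 13027 genes by the Benjamini-Hochberg method, 0 of 97 clec genes were called, against 0.115% of all genes (0.0691% higher and 0.0461% lower in TOP-2-depleted larvae). At an unadjusted p under 0.05 there were 9 (9.28%, against 4.62% of all genes), and limma-voom on the reads also called 0 of 103 clec genes and 0.0% of all genes, with 38 (36.9%, against 17.3%) at an unadjusted p under 0.05. The direction was uneven, since 83 of 97 clec genes (85.6%) were lower in TOP-2-depleted larvae, against 46.7% of all genes, with median differences of -0.80 and 0.04. Both libraries of TOP-2-depleted larvae lay below both of TOP-1-depleted larvae in 68 of 103 clec genes (66.02%), against 27.5% of all genes, and above both in 2, against 27.0%.

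The widest difference of a single member was that of clec-12 (T27F6.2, chromosome I). It had 18.6 and 14.2 normalized counts in TOP-2-depleted larvae, 161 and 145 in TOP-1-depleted larvae, and 70.1 and 38.9 in the control. The control libraries lay between the depletions, and clec-12 was called lower in TOP-2-depleted larvae (-1.69 ± 0.66, adjusted p 0.0476) and higher in TOP-1-depleted larvae (1.49 ± 0.47, adjusted p 0.00831) in the authors' deposited tables. By limma-voom clec-12 was not called in TOP-2-depleted larvae without TOP-2-depleted library 1, TOP-2-depleted library 2 or control library 1 (adjusted p 0.103, 0.142 and 0.107), nor in TOP-1-depleted larvae without TOP-1-depleted library 1 (adjusted p 0.0721). The difference was -3.18 ± 0.81 (TOP-2 minus TOP-1), and its adjusted p of 0.0578 by the Wald z missed the threshold. The SE counts the control variance in both terms and is therefore too large. With both variances multiplied by 0.5, 6 clec genes were called lower in TOP-2-depleted larvae and none higher, against 0.791% of all genes called lower, namely clec-12, clec-17, clec-187, clec-233, clec-174 and clec-42.

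Among those 6, clec-17 on chromosome I had 1015 and 484 normalized counts in TOP-2-depleted larvae and 3398 and 2629 in TOP-1-depleted larvae (difference -1.99 ± 0.71). The gene clec-174 on chromosome IV had 28 and 18.5 in TOP-2-depleted larvae and 107 and 130.5 in TOP-1-depleted larvae (difference -2.33 ± 0.97). In both genes each TOP-1-depleted library lay above each TOP-2-depleted library. The gene clec-187 on chromosome IV had 204 and 155 in TOP-2-depleted larvae, 473 and 524 in TOP-1-depleted larvae and 429 and 641 in the control, so that TOP-1-depleted larvae overlapped the control. Its neighbour clec-186 had 477 and 391 in TOP-2-depleted larvae, 737 and 750.1 in TOP-1-depleted larvae and 919 and 1332 in the control. Against this direction, clec-1, clec-264 and clec-199 had differences of 0.01 ± 0.43, 0.01 ± 0.52 and -0.06 ± 0.57.

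Regulators of intestinal immunity were read beside the family. The lists here and below go with the shares of all tested genes in the authors' deposited tables. These were 14.1% higher and 7.47% lower in TOP-2-depleted larvae, and 17.1% higher and 12.8% lower in TOP-1-depleted larvae. The p38 pathway genes tir-1, nsy-1, sek-1, pmk-1, atf-7 and vhp-1 had 0 of 6 called in either of the authors' deposited tables, with medians of -0.10 in TOP-2-depleted larvae and -0.39 in TOP-1-depleted larvae. The kinase gene pmk-1 had 294 and 301 normalized counts in TOP-2-depleted larvae, 278 and 267 in TOP-1-depleted larvae and 444 and 409.9 in the control. Its activity is set by phosphorylation, which RNA does not measure. Of 15 other regulators of intestinal immunity, bar-1, a beta-catenin, was called higher in both of the authors' deposited tables (1.14 ± 0.33 and 1.03 ± 0.34). The Hox gene egl-5, which acts with bar-1 in the response to S. aureus, was called lower in both (-2.23 ± 0.39 and -2.81 ± 0.36 in the authors' deposited tables). Also called lower in both was the nuclear hormone receptor gene nhr-86, while in TOP-1-depleted larvae zip-2 was called lower and cebp-1 higher, and the remaining 10 were called in neither.

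Among 9 immune reporters outside the family, sysm-1 had 148 and 129 normalized counts in TOP-2-depleted larvae, 127 and 268 in TOP-1-depleted larvae and 8.67 and 20.9 in the control, and was called higher in both of the authors' deposited tables. The gene dod-24 had 1158 and 774 in TOP-2-depleted larvae, 3715 and 3099 in TOP-1-depleted larvae and 272 and 752 in the control, and with irg-2 was called higher in TOP-1-depleted larvae and not in TOP-2-depleted larvae. The gene cld-9 was called lower in both, and the other 5 were not called. Galectins, sugar-binding proteins of another fold, had 5 of 12 called lower (lec-1, lec-4, lec-5, lec-10 and lec-11) and none higher in TOP-2-depleted larvae. In TOP-1-depleted larvae 3 were called lower (lec-1, lec-10 and lec-11) and 1 higher (lec-7) in the authors' deposited table. All tested genes were called lower in 7.47% (TOP-2 depletion) and 12.8% (TOP-1 depletion) of cases, and higher in 14.1% and 17.1%.

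Markers of other tissues moved with the depletions, and in whole-animal RNA fewer cells of a type and less RNA per cell cannot be told apart. Intestine markers, the tissue where many clec genes are read, had 1 of 10 tested called higher in TOP-2-depleted larvae (pept-1) and 2 higher (pept-1 and ges-1) and 1 lower (mtl-2) in TOP-1-depleted larvae, with medians of 0.20 and 0.38 in the authors' deposited tables. The 4 intestine markers with recovered reads summed to 1548 and 1583 in TOP-2-depleted larvae, 2059 and 2061 in TOP-1-depleted larvae, and 1190.3 and 2076 in the control, with control library 2 the higher as for clec genes. Pharynx markers had 6 of 7 called higher in both depletions, with medians of 5.45 and 5.10 in the authors' deposited tables, and the 5 with reads summed to 11678 and 8792 in TOP-2-depleted larvae, 9999.8 and 5011 in TOP-1-depleted larvae, and 931 and 701 in the control. Their control libraries lay far under both depletions, and ceh-22, a pharyngeal muscle factor, had no read in a control library.

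Germline markers had 5 of 5 tested called higher in both, with sums of 2932 and 5068 in TOP-2-depleted larvae, 1891.5 and 3405 in TOP-1-depleted larvae, and 206 and 282 in the control. Coelomocyte markers had 3 of 3 called higher in TOP-2-depleted larvae and 1 of 3 in TOP-1-depleted larvae, and hypodermis markers 2 of 5 and 4 of 5 lower. The hypodermis sums were 3512 and 4319 in TOP-2-depleted larvae, 3157 and 3548 in TOP-1-depleted larvae, and 9034 and 6061 in the control. Body wall muscle markers had none of 4 called in either, and neurons 0 and 2 of 5 lower. Sperm markers had 1 of 2 tested called higher (spe-44) in TOP-2-depleted larvae and none in TOP-1-depleted larvae. Of the gonad sheath and spermatheca markers lim-7 was called lower in both and fkh-6 higher in TOP-1-depleted larvae, and of the excretory markers aqp-8 was called higher and ceh-6 lower in both. The part of these tissue differences in the clec results was not tested.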

How the data were processed

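RNA of 4 samples (2 per depletion) was compared by the authors with control libraries of strain CA1200. The poly(A) libraries were stranded (dUTP), per the labels' protocols. Tools listed in the submitters' processing notes are DESeq2 1.30.0, HTSeq 0.13.5, HISAT2 2.2.1, Cufflinks 2.2.1 and CASAVA 1.8, with no role given, and the genome build was not given in the sources used here. The mean normalized count, a signal that is never negative, was deposited by the authors for each comparison, as were the log2 fold change and its SE, the Wald score, and the p-value and adjusted p-value, per the file headers. The design assumed these units, and no column per sample was used.

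The clec members, gene lists and markers were chosen with earlier results of these data known. Symbols, neighbours (within 10 kb) and exonic lengths came from Ensembl release 115, in which 98.2% and 98.1% of the names matched. Reads per library were solved from the 15-digit means for genes with a mean up to 3000 (8000 for clec genes). Folds of the recovered means differed from the deposited ones by a median of 0.0008 (log2) and by at most 0.0374. Counts per library were scaled by median-of-ratios size factors. As an alternative added after seeing the data, limma 3.58.1 (voom, R 4.3.3) was fitted to all 12490 genes whose mean over 6 libraries was 10 or more, and again with each library left out. A lone library of a group was then assumed to vary like the other groups. The difference between depletions used a Wald z with Benjamini-Hochberg adjustment over 13027 genes. The Wald z of the difference and limma-voom with all libraries were also run on simulated data. The authors' own test and the leave-one-out fits were not. Simulated differences for the Wald z were larger than any clec difference, and those for limma-voom gave all genes the same spread. They therefore do not show how many clec changes would be missed or falsely called here. Ratios of genes with 1 to 3 reads in a group have 95% exact binomial (Clopper-Pearson) intervals, which cover counting error only.

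Named were, in each table, the 10 largest rises and falls among called clec genes whose mean was 50 or more, the infection-related members, the 5 highest levels per kb, and called neighbours of called members. Genes outside that rule (clec-12, clec-17, clec-86, clec-88, clec-92, clec-106, clec-170, clec-194, clec-232, clec-245, clec-246, clec-265, clec-266 and the uncalled members of runs) were named after their values were seen.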

Additional observations from a re-analysis of the deposited data

Results flagged for a closer look

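In 3 clec genes both TOP-2-depleted libraries lay below, and both TOP-1-depleted libraries above, both control libraries. All members were searched with no floor on counts. The share of all genes with this order was not counted, so the number is not read as a trait of the family. For clec-12 the difference was -3.18 on the log2 scale (TOP-2 minus TOP-1) and its test is given above, with an adjusted p of 0.0578 by the Wald z. For clec-73 the deposited fold changes differed by -2.30, with 1.86 and 1.09 normalized counts in TOP-2-depleted larvae, 10.2 and 4.7 in TOP-1-depleted larvae and 2.36 and 1.9 in the control. For clec-238 they differed by -1.93, with 2.8 and 1.09 in TOP-2-depleted larvae, 7.12 and 8.23 in TOP-1-depleted larvae and 4.73 and 4.74 in the control. Both of these last genes have under 11 reads in every library, neither was called in either of the authors' deposited tables, and their differences were not tested.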

How the results depend on the processing

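The signs of both medians held in every setting run. Under limma-voom, with all libraries or with 1 left out, no clec gene called by that fit or in the table changed sign. Among uncalled genes up to 9 did so in TOP-2-depleted larvae (without either control library, such as clec-67 at -0.20 without control library 1) and up to 10 in TOP-1-depleted larvae (without control library 1, such as clec-60 at -0.56). The 52 calls in TOP-2-depleted larvae became 22 (12 higher, 10 lower) and the 72 in TOP-1-depleted larvae 35 (28 higher, 7 lower) at a mean of at least 100, and stayed within 1.5 times at adjusted p under 0.01 or 0.1, a minimum fold, no filter on low means, a mean of at least 10, or with the median of X or autosomal genes subtracted. Leaving out 1 library in limma-voom gave 33 to 48 calls in TOP-2-depleted larvae, the lowest without control library 1, and 44 to 63 in TOP-1-depleted larvae, with 44 without either of its own libraries. The cause was not tested. The median of 0.71 in TOP-2-depleted larvae became 0.24 at a mean of at least 100, 0.83 with the class median subtracted (X 0.54, autosomes -0.13), 0.96 as a mean and 0.84 by limma-voom, with 0.23 to 1.45 when 1 library was left out (0.23 and 1.45 without control library 1 and 2, 0.81 without TOP-2-depleted library 1). That of 1.62 in TOP-1-depleted larvae became 1.47 with no floor, 1.20 at a mean of at least 100, 1.75 with the class median subtracted (X 0.68, autosomes -0.14), 1.86 as a mean and 1.83 by limma-voom, with 1.22 to 2.61 when 1 library was left out (1.22 and 2.61 without control library 1 and 2, 1.73 without TOP-1-depleted library 1). The 0 calls between the depletions became 1 at adjusted p under 0.1 and 6 with both variances multiplied by 0.5. No paired analysis was possible because the recovered libraries cannot be tied to replicate numbers. Depth limits the 61 and 59 clec genes with a mean under 10, of which 4 were called in each table, and clec-63 could not be read by library.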
